A study of Mus musculus with 2 samples.

Results

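Ion channels that carry a depolarizing current at rest set how readily a neuron fires, and 8 genes for such channels were followed through the cell classes of the ventral parafacial region, a strip of the medulla that holds the respiratory chemoreceptors of the retrotrapezoid nucleus (RTN). They were taken by symbol: *Hcn2*, *Hcn3* and *Hcn4*, the sodium leak channel gene *Nalcn* with *Unc79* and *Unc80*, and the TRP channel genes *Trpm4* and *Trpc6*. These are 8 of the 28692 genes counted. Single cells came from C57BL6/J mice aged 10 days and were sequenced with 10X Genomics v2 chemistry as 2 libraries, each taken here as its own batch. The untreated library (condition WT) was made from 8 pooled mice, 4 male and 4 female, and the 4OH-tamoxifen library from another 8, 4 of each sex, that had received 0.2 mg of 4OH-tamoxifen daily for 3 days. Both groups share the strain C57BL6/J and no transgene is named for either. With 1 library per condition, the condition, the batch and the pool of mice cannot be told apart, and no test between conditions was made.

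HCN channels are cation channels that open when the membrane hyperpolarizes and that bind cyclic AMP, which makes them open more readily. Their inward current slows hyperpolarization and helps repetitive firing in pacemaker cells of the heart and in many neurons. NALCN is a cation channel that is not gated like the classical sodium channels. It passes a steady sodium leak, needs the large partner proteins UNC79 and UNC80 to work, and is known as part of the background conductance of RTN neurons. TRPM4 is opened by intracellular calcium and passes monovalent cations, and TRPC6 is a nonselective cation channel opened downstream of phospholipase C.

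Cells were assigned to classes by the UMIs (unique molecular identifiers, each 1 counted transcript) of marker genes that do not include the channel genes. Quality control kept 3339 untreated and 8558 4OH-tamoxifen cells, and 6800 of these 11897 fell in 9 classes. The 4 neuron classes were the *Nmb* class (RTN chemoreceptors, 19 untreated and 47 4OH-tamoxifen cells), the *Slc17a6* class (other glutamatergic neurons, 11 and 69), the *Slc32a1* class (inhibitory neurons, 70 and 267) and the *Chat* class (cholinergic neurons, 16 and 70). The 5 non-neuronal classes were the *Aqp4* class (astrocytes, 758 and 1673), the *Pdgfra* class (oligodendrocyte precursors, 259 and 582), the *Mog* class (oligodendrocytes, 378 and 1256), the *C1qa* class (microglia, 324 and 541) and the *Cldn5* class (endothelial cells, 195 and 265). A further 4616 cells passed no gate. Markers that the gates did not use were highest in the classes named for them: *Gal*, *Gpr4* and *Kcnk5* summed to 4990 and 3561 CPM (UMIs of a gene per 1000000 UMIs of the class) in the *Nmb* class and to at most 114 CPM in any other class, and *Gad1*, *Gad2* and *Slc6a5* to 1896 and 1751 CPM in the *Slc32a1* class and at most 37.8 CPM in the others. The *Slc17a6* class was mixed, with *Th*, *Dbh* and *Pnmt* of catecholamine neurons at 553 CPM in the untreated and 229 CPM in the 4OH-tamoxifen library. It also held the cholinergic genes *Slc18a3*, *Slc5a7*, *Isl1* and *Prph* at 562 and 621 CPM, against 4379 and 4380 CPM in the *Chat* class and 70.0 to 156 CPM in the *Nmb* and *Slc32a1* classes. The libraries shared 40 cell barcodes, 32 of them among kept cells.

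The channel genes were sparse. Over the 9 classes, *Hcn2* had 2004 UMIs, *Unc80* 984, *Nalcn* 629, *Unc79* 267, *Hcn3* 139, *Trpm4* 115, *Hcn4* 9 and *Trpc6* 2. A filter of at least 50 UMIs passed 6 of the 8 genes, so *Hcn4* and *Trpc6* are described by their counts alone. Levels below are the UMIs of a gene summed over the cells of a class in a library, as CPM, with exact 95% Poisson intervals. These intervals, and those of shares and ratios, cover counting error only. A sum cannot tell fewer expressing cells from less RNA per cell, so the share of cells with a UMI is given for the main findings. Levels were compared within a gene and not between genes.

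Promoter sequences of the genes on which the results turn are shown here because *Hcn2* followed one pattern over the classes and the sodium leak genes another. They run from 250 bases before to 50 after the start in the RefSeq table of build GRCm38.p6, which matched 6 of the 8 genes, all but *Hcn3* and *Trpm4*. Capitals mark GC boxes, searched as GGGCGG on both strands. Of all 32851 promoters in the table, 35.7% hold a GC box, and the median promoter has 7 CG dinucleotides. The *Hcn2* promoter, chr10:79716384-79716683 on the plus strand, has 26 CG dinucleotides and 3 GC boxes, all 3 on the minus strand.
Hcn2: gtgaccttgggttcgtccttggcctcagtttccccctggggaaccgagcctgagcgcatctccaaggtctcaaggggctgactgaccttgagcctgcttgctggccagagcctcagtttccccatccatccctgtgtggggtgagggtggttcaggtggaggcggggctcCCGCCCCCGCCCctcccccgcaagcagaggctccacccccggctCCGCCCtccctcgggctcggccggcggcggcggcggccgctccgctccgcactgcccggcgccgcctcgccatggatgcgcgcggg
The *Nalcn* promoter, chr14:123627095-123627394 on the minus strand, has 3 CG dinucleotides and no GC box in this window.
Nalcn: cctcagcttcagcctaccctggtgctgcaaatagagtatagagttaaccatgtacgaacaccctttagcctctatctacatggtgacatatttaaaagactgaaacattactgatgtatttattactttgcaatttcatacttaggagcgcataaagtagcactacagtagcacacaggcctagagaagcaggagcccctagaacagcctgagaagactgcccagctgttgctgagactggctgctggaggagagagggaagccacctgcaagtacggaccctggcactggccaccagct
The *Unc79* promoter, chr12:102948609-102948908 on the plus strand, has 8 CG dinucleotides and no GC box.
Unc79: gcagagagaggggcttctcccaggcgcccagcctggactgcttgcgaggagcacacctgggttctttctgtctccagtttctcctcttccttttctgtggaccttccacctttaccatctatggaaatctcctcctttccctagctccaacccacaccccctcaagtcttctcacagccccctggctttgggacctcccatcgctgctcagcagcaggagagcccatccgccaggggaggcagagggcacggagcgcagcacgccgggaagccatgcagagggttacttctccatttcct
The *Unc80* promoter, chr1:66467684-66467983 on the plus strand, likewise has 8 CG dinucleotides and no GC box.
Unc80: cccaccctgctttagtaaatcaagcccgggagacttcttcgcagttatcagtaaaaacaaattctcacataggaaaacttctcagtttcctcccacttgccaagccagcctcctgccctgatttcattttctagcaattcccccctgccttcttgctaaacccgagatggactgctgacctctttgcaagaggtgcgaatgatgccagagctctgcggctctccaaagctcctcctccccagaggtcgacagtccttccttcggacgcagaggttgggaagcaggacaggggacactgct
A search for the cyclic AMP response element TGACGTCA and the E box CACGTG found neither in these 4 windows. They occur in 1.79% and 7.15% of all promoters. *Hcn4* (31 CG dinucleotides, 2 GC boxes) and *Trpc6* (17 CG dinucleotides, no GC box) had entries as well. In the GENCODE annotation of GRCm38, *Hcn2* spans chr10:79716634-79736108, *Nalcn* chr14:123276634-123627144, *Unc79* chr12:102948859-103184065 and *Unc80* chr1:66468367-66699148, whose start lies downstream of the window shown, as the annotations place the *Unc80* start differently. *Hcn3*, at chr3:89146074-89160196, overlaps *Pklr* on the other strand.

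The first question was whether these genes were higher in neurons than in the other cells. All 6 genes that could be tested were higher in neurons, against 62.7% of all 13065 genes tested that passed in either direction. The strongest were *Unc80* (log2 fold change 3.47 ± 0.15 SE, edgeR adjusted p = 6.5e-42), *Hcn3* (3.41 ± 0.38, adjusted p = 7.32e-14) and *Nalcn* (3.26 ± 0.17, adjusted p = 7.96e-34). *Unc79*, whose product scaffolds the sodium leak channel together with UNC80, was higher by 2.33 ± 0.32 (adjusted p = 4.18e-10), and *Hcn2*, an HCN subunit that responds strongly to cyclic AMP, by 1.54 ± 0.16 (adjusted p = 2.14e-15). *Trpm4* was higher by 1.17 ± 0.44 (adjusted p = 0.0167), on only 11 untreated and 20 4OH-tamoxifen UMIs in neurons. The 6 passed the filter partly through their neuron counts, so this count and median describe them only. The median of the 6 was 2.79, where the median of all genes tested was -0.38. That median depended on the scaling: it was 0.15 with library sizes in place of TMM factors, and the share of passing genes that were higher in neurons moved from 39.2% to 61.4%, while all 6 channel genes kept their direction and their call. *Trpm4* lost its call under 2 of 12 alternatives and reversed under 1. With cells of at most 10% mitochondrial UMIs it fell to -0.40 (adjusted p = 0.892), and with non-neuronal markers barred from each class it was 0.71 (adjusted p = 0.315). With neuron markers at a minimum of 2 UMIs it was 0.93 (adjusted p = 0.102).

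**Figure D1:**
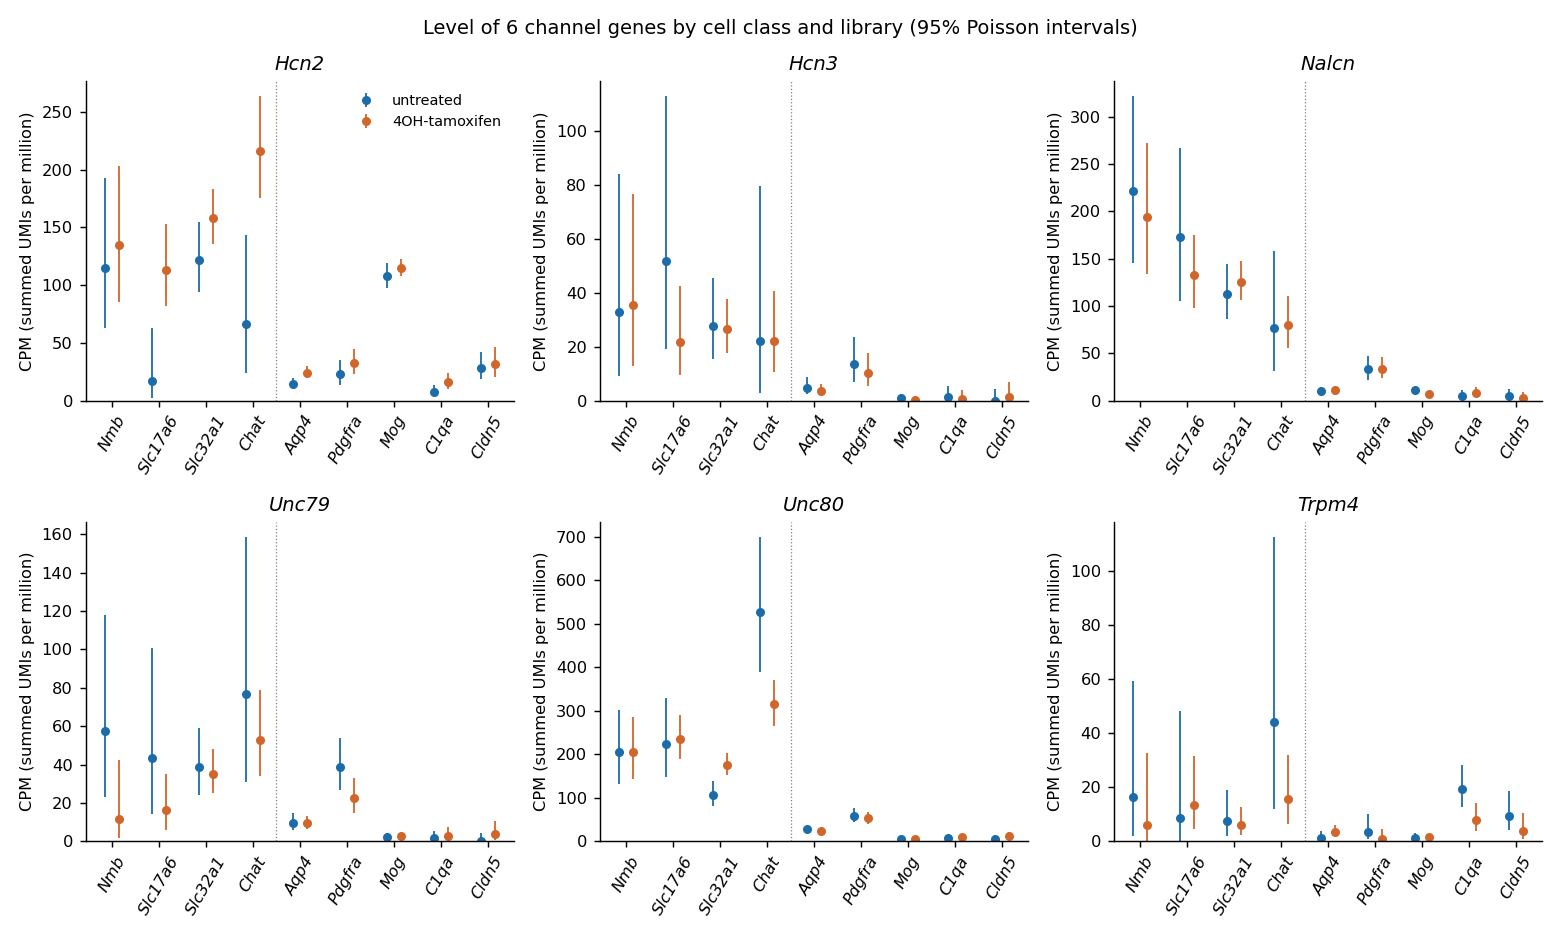
CPM of the 6 tested genes (vertical axes, linear) in the 9 cell classes (horizontal axes), blue for the untreated and orange for the 4OH-tamoxifen library, with 95% Poisson intervals and a dotted line between neuron and non-neuronal classes. *Hcn2* stands at 108 and 115 CPM in the *Mog* class, within the range of the neuron classes, while *Nalcn*, *Unc79* and *Unc80* are lower in every non-neuronal class than over all neurons, with *Pdgfra* cells next after neurons.

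*Hcn2* was abundant in oligodendrocytes. Its level in the *Mog* class was 108 CPM (95% interval 97.3 to 119) in the untreated and 115 CPM (108 to 122) in the 4OH-tamoxifen library. Over all neurons it was 101 CPM (81.0 to 124) and 161 CPM (144 to 179). The untreated intervals overlapped and the 4OH-tamoxifen intervals did not, with a ratio of *Mog* class to neurons of 1.07 (0.845 to 1.36) and 0.714 (0.630 to 0.810). The neuron classes had unequal shares of the neuron UMIs in the libraries. In the other non-neuronal classes *Hcn2* was at 7.41 to 32.8 CPM, so that the *Mog* class was 6.44-fold higher than the mean of the other 4 (log2 fold change 2.69 ± 0.16, edgeR adjusted p = 1.81e-29). In this contrast 55.1% of all genes passed. The direction and the call were kept under all 13 alternatives with a test, at log2 fold changes of 2.44 to 2.84. Oligodendrocytes held 65.4% of the *Hcn2* UMIs of the 9 classes, with 42.9% of all UMIs.

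Shares of cells gave the same picture. *Hcn2* was detected in 44.2% of untreated and 38.3% of 4OH-tamoxifen *Mog* cells, against 44.0% and 46.8% of neurons. It was detected in 3.09% and 3.88% of microglia, the class taken as the background level. Depth differed between these classes (median 8876 and 6444 UMIs in the *Mog* class, 4002 and 2300 in the *C1qa* class). After each cell was thinned to 2000 UMIs, the shares were 17.96% and 18.8% in *Mog* cells, 16.7% and 26.6% in neurons, and 1.92% and 2.95% in microglia.

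Neuron transcripts were low in the *Mog* class. *Snap25*, *Syp*, *Tubb3* and *Elavl2*, the genes of the neuron gate, summed to 110 and 152 CPM in *Mog* cells and to 2733 to 4689 CPM in the 4 neuron classes. *Unc80* stood at 5.07 CPM in both *Mog* libraries, against 180 and 218 CPM in neurons. In the other direction, oligodendrocyte transcripts were found in every class. *Mbp*, *Mag* and *Mobp* (3 of 3 detected throughout) summed to 31919 and 33041 CPM in the *Mog* class, 8570 to 17670 CPM in the other non-neuronal classes and 4274 to 8593 CPM in neurons. Their part in the 7.41 to 32.8 CPM of *Hcn2* in the other glial and vascular cells was not tested. The lowest level of each library was in microglia, 7.41 and 15.9 CPM, where *Hcn2* was lower than in the other non-neuronal classes (log2 fold change -1.33 ± 0.29, edgeR adjusted p = 5.74e-05), in a contrast in which 39.0% of all genes passed.

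**Figure D2:**
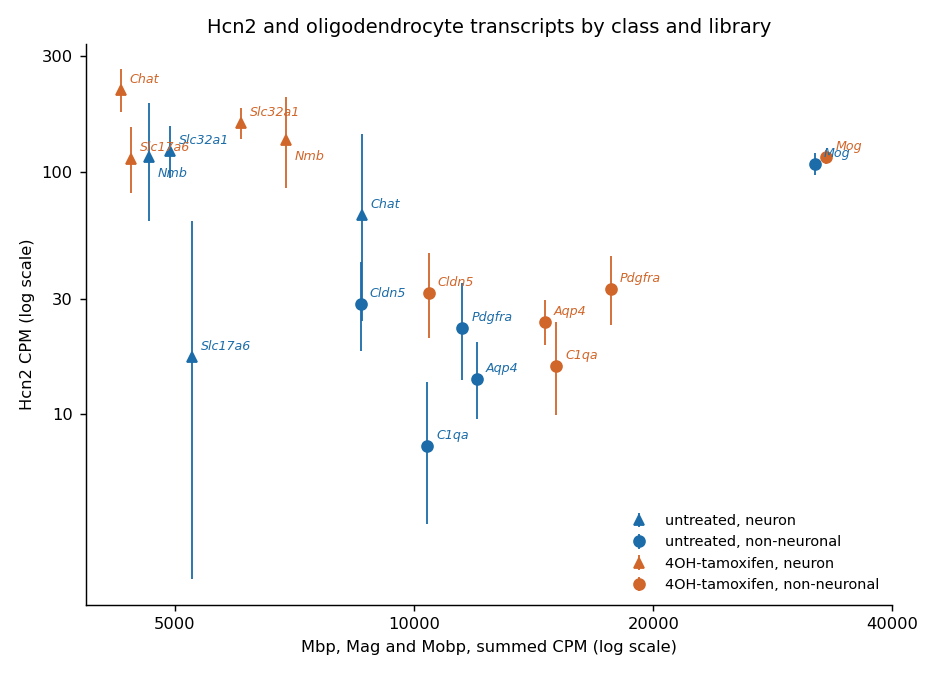
*Hcn2* CPM with 95% Poisson intervals (vertical axis, log scale) against the summed CPM of *Mbp*, *Mag* and *Mobp* (horizontal axis, log scale), 1 point per class and library, triangles for neuron and circles for non-neuronal classes. The *Mog* class (108 and 115 CPM) lies apart from the other non-neuronal classes, which lie between 7.41 and 32.8 CPM.

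Within the *Mog* class, *Hcn2* was highest in cells with *Klk6*, a protease gene of mature oligodendrocytes of the brainstem and spinal cord. These subsets were chosen after the levels had been seen and overlap each other. Cells with at least 2 *Klk6* UMIs had *Hcn2* at 210 CPM (180 to 245) in the untreated library (67 cells) and 218 CPM (196 to 242) in the 4OH-tamoxifen library (234 cells). Cells with at most 1 *Klk6* UMI had it at 77.9 CPM (67.8 to 89.0) and 89.2 CPM (82.0 to 96.7). The ratio was 2.70 (2.19 to 3.32) and 2.44 (2.13 to 2.80), and the intervals did not overlap in either library. *Hcn2* was found in 85.1% and 67.9% of the *Klk6* cells and in 35.4% and 31.5% of those with at most 1 *Klk6* UMI. These shares were not thinned. The *Klk6* cells were deeper, with medians of 11630 against 7970 UMIs in the untreated and 6653.5 against 6411.5 UMIs in the 4OH-tamoxifen library. Cells with at least 2 UMIs of *Enpp6*, a gene of newly formed oligodendrocytes, had 126 and 127 CPM, and those with *Opalin*, a gene of myelinating cells, 106 and 111 CPM.

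Among neurons no class passed for *Hcn2*. In the untreated library it was at 115 CPM (62.7 to 192) in the *Nmb* class, 17.3 CPM (2.09 to 62.4) in the *Slc17a6* class, 122 CPM (94.0 to 155) in the *Slc32a1* class and 66.0 CPM (24.2 to 144) in the *Chat* class. In the 4OH-tamoxifen library the same classes had 135 CPM (85.7 to 203), 113 CPM (81.7 to 153), 158 CPM (136 to 183) and 216 CPM (176 to 264). Neighbouring levels overlapped throughout, and the *Slc17a6* and *Chat* classes differed between the libraries by more than counting error, with 4OH-tamoxifen to untreated ratios of 6.56 (1.71 to 55.9) and 3.28 (1.45 to 9.15). Their untreated values rest on 2 and 6 UMIs. The largest departure from the other neurons was that of the *Slc17a6* class, -0.88 (95% interval -1.45 to -0.31, edgeR adjusted p = 0.134). Within the *Slc32a1* class, *Hcn2* was at 229 CPM (145 to 343) and 233 CPM (156 to 335) in the 13 untreated and 32 4OH-tamoxifen cells with at least 2 *Cck* UMIs, and at 96.5 CPM (61.2 to 145) and 147 CPM (110 to 192) in cells with at least 2 *Sst* UMIs. That is a ratio of 2.37 (1.27 to 4.42) in the untreated and 1.59 (0.973 to 2.54) in the 4OH-tamoxifen library. Cells with at least 2 *Pvalb* UMIs (2 and 10 cells) had 216 and 164 CPM, and those with at least 2 *Ndnf* UMIs (3 and 15 cells) 45.8 and 169 CPM. RTN cells with and without galanin (*Gal*) had 106 and 133 CPM in the untreated library and 135 and 135 CPM in the other.

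**Figure D3:**
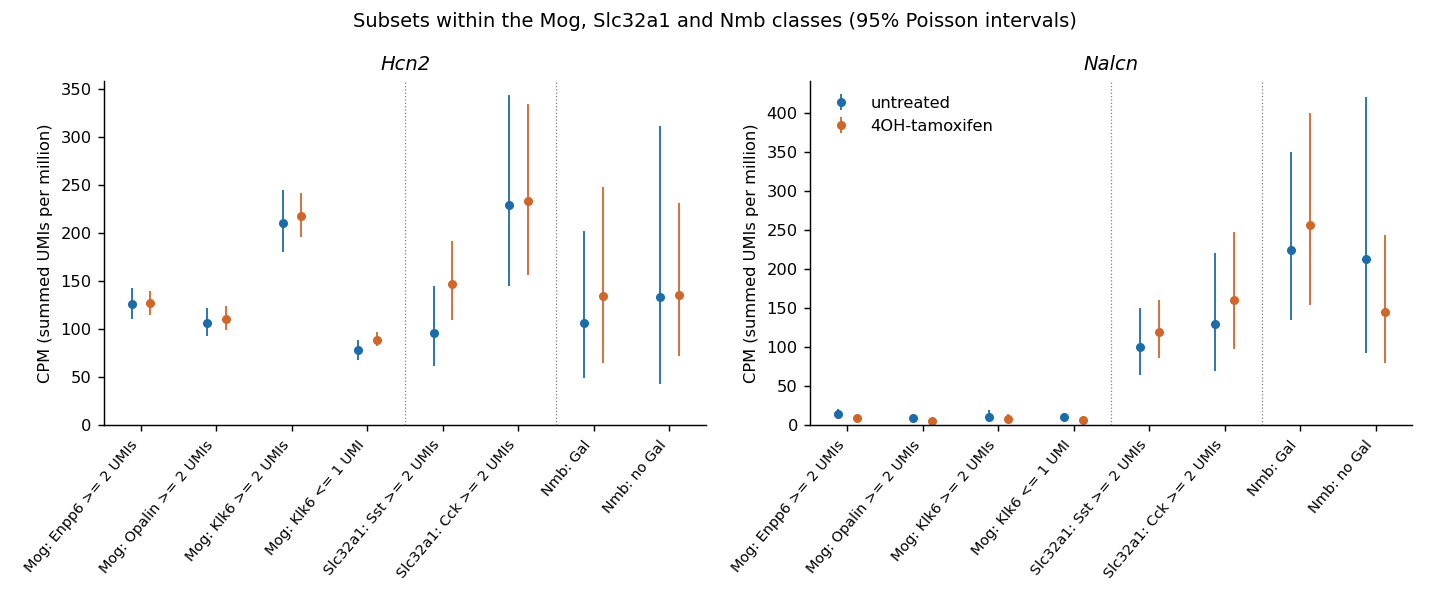
CPM of *Hcn2* (left) and *Nalcn* (right) in subsets of the *Mog*, *Slc32a1* and *Nmb* classes (horizontal axes), blue for the untreated and orange for the 4OH-tamoxifen library, with 95% Poisson intervals. *Hcn2* is at 210 and 218 CPM in *Klk6* oligodendrocytes and at 77.9 and 89.2 CPM in the remaining *Mog* cells, while *Nalcn* stays at 13.8 CPM or less in every *Mog* subset shown.

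*Hcn3*, an HCN subunit with little response to cyclic AMP, was mainly found in neurons and did not rise in oligodendrocytes. It was at 31.0 CPM (20.4 to 45.1) over untreated and 25.3 CPM (19.0 to 33.1) over 4OH-tamoxifen neurons, with 27 and 54 UMIs. In the *Mog* class 3 UMIs were counted in each library, 0.845 and 0.371 CPM. The 4 neuron classes lay between 22.0 and 51.9 CPM in the untreated library and between 21.6 and 35.3 CPM in the 4OH-tamoxifen library, all with overlapping intervals. Precursor cells stood next, at 13.6 CPM (7.01 to 23.7) and 10.1 CPM (5.21 to 17.6), and the *Pdgfra* class was higher than the other non-neuronal classes by 2.85 ± 0.53 (edgeR adjusted p = 4.38e-06). Astrocytes had 4.82 and 3.51 CPM. They were also higher (1.35 ± 0.53, adjusted p = 0.0298), a call lost under 4 of 13 alternatives, with adjusted p from 0.0195 to 0.384.

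*Hcn4*, the dominant HCN gene of the sinoatrial node, was near the limit of detection. It had 7 untreated and 11 4OH-tamoxifen UMIs in all kept cells and 9 in the 9 classes. In the 4OH-tamoxifen library 6 of its UMIs lay in 6 neurons, 1 of the *Nmb*, 2 of the *Slc17a6*, 1 of the *Slc32a1* and 2 of the *Chat* class. That is 2.81 CPM over neurons, against 2 UMIs and 0.132 CPM over non-neuronal cells, a ratio of 21.4 (3.82 to 216). In the untreated library 0 UMIs were counted in 116 neurons, where 3 UMIs would correspond to 3.44 CPM, and 1 in astrocytes.

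Other genes of the HCN pathway were read from a list of 5, of which 3 passed the filter. *Lrmp* passed it only through microglia (33 and 38 UMIs). It had 0 UMIs in every neuron class, so its neuron contrasts could not give a call and are not counted. Of the others, *Pex5l*, which encodes the HCN partner TRIP8b, was higher in neurons by 1.47 ± 0.22 (edgeR adjusted p = 4.14e-09). *Kctd3* was not called there, where 62.7% of all genes passed. In the *Mog* class 2 of the 3 were higher than in the other non-neuronal classes, where 55.1% of all genes passed. *Pex5l* was at 67.9 and 105 CPM there, against 33.1 to 59.6 CPM in the neuron sums other than the untreated *Chat* class (99.0 CPM), and was higher by 3.77 ± 0.18 (adjusted p = 1.19e-36). *Kctd3*, a regulator of HCN3, was higher by 1.65 ± 0.16 (adjusted p = 4.78e-16). Neither *Pex5l* nor *Kctd3* passed in a neuron class by edgeR or DESeq2, where between 1.34% and 14.2% of all genes passed by edgeR. In edgeR 1 unadjusted p was under 0.05, that of *Kctd3* in the *Slc32a1* class (0.67 ± 0.31, adjusted p = 0.173).

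Adenylyl cyclases make the cyclic AMP that HCN channels bind, and all 8 on the list were tested. In neurons 6 were higher and 0 lower, where 62.7% of all genes passed, with log2 fold changes from 1.25 for *Adcy3* to 2.81 for *Adcy2*. *Adcy1*, *Adcy5*, *Adcy7* and *Adcy8* lay between them, at 2.72, 1.30, 2.71 and 1.58. Single non-neuronal classes reached neuron levels for 2 of these. *Adcy7* was at 27.4 and 15.1 CPM in microglia, against 5.88 to 21.6 CPM in the neuron classes. *Adcy8* was at 53.9 and 41.1 CPM in astrocytes, against 0 to 46.0 CPM in the neuron classes. In the *Mog* class, where 55.1% of all genes passed, 5 were lower and only *Adcy5* of the 8 was higher, by 2.66 ± 0.19 (edgeR adjusted p = 1.14e-23). Among neurons *Adcy1* was higher in the *Slc32a1* class (1.94 ± 0.26, adjusted p = 4.97e-09) and the *Slc17a6* class (1.16 ± 0.33, adjusted p = 0.0449) and lower in the *Chat* class (-1.91 ± 0.44, adjusted p = 7.11e-04), and *Adcy3* was higher in the *Slc32a1* class (0.99 ± 0.35, adjusted p = 0.0474).

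**Figure D4:**
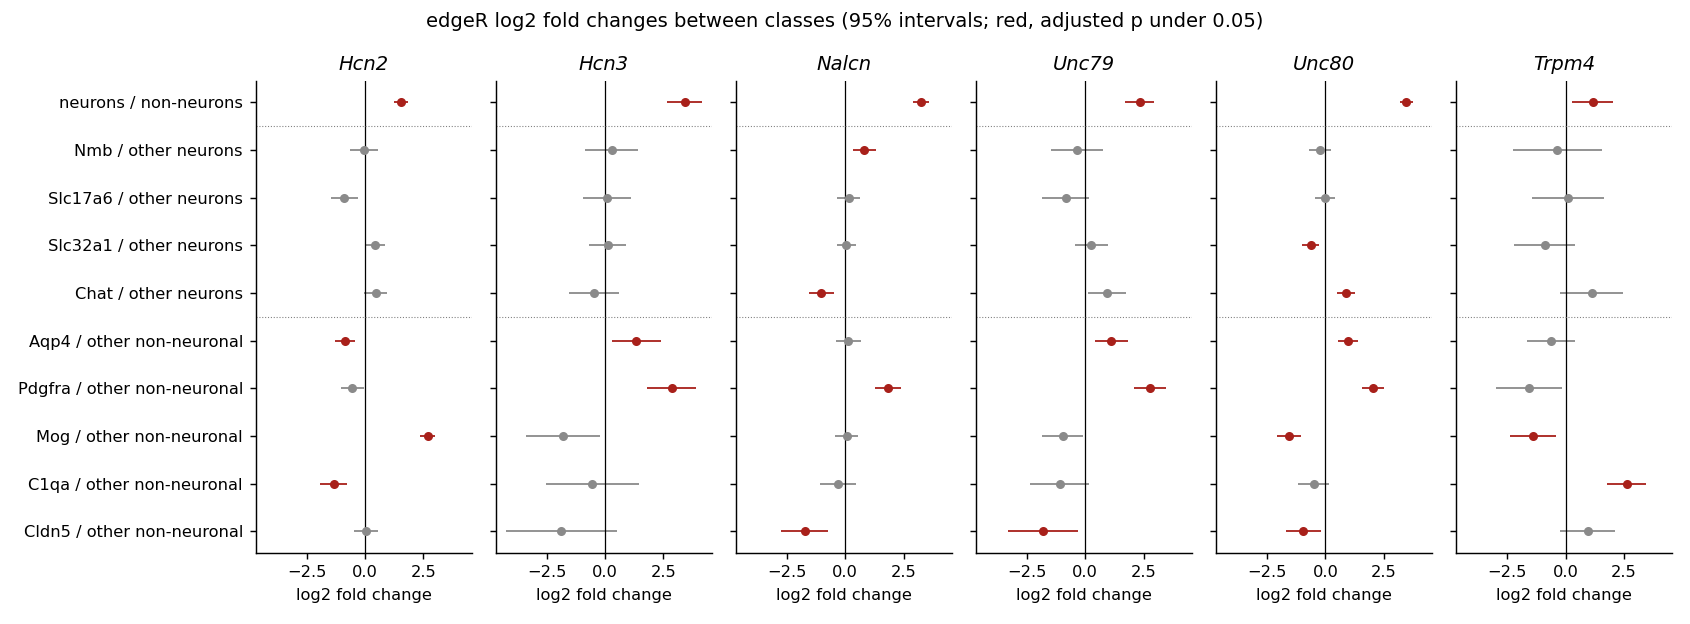
Log2 fold changes from edgeR (horizontal axes) for the 6 tested genes in 10 contrasts (vertical axis), with 95% intervals, red where the adjusted p was under 0.05 and grey otherwise. All 6 genes are right of 0 for neurons against non-neurons, *Hcn2* is highest for the *Mog* class (2.69), and *Hcn3*, *Nalcn*, *Unc79* and *Unc80* are right of 0 for the *Pdgfra* class.

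*Nalcn*, the pore of the sodium leak channel, had its highest class level in RTN neurons. In the *Nmb* class it was at 221 CPM (146 to 322) in the untreated and 194 CPM (133 to 272) in the 4OH-tamoxifen library. The *Slc17a6* class followed with 173 CPM (106 to 267) and 132 CPM (97.8 to 175), the *Slc32a1* class with 112 CPM (85.9 to 144) and 126 CPM (106 to 148), and the *Chat* class with 77.0 CPM (31.0 to 159) and 79.5 CPM (55.7 to 110). The order of the 4 was the same in both libraries. Each neighbour overlapped the next, while the *Nmb* class did not overlap the *Slc32a1* class in the untreated library or the *Chat* class in the 4OH-tamoxifen library. *Nalcn* was 1.77-fold higher in the *Nmb* class than in the other neurons (log2 fold change 0.82 ± 0.26, edgeR adjusted p = 0.0441), where 4.14% of all genes passed. This call was lost under 7 of 13 alternatives (adjusted p from 0.0176 to 0.714) with the log2 fold change between 0.67 and 1.16. In the *Chat* class *Nalcn* was lower by a log2 fold change of -1.03 ± 0.27 (adjusted p = 0.00338), and 14.2% of all genes passed. That call was lost only with 2 UMIs of a neuron marker required (adjusted p = 0.226). *Nalcn* was detected in 73.7% (14 of 19) and 55.3% (26 of 47) of RTN neurons and in 1.85% and 2.03% of microglia. RTN cells with galanin had 225 CPM (135 to 351) and 256 CPM (154 to 400), and those without had 213 CPM (92.2 to 421) and 146 CPM (79.7 to 245), with overlapping intervals. The few *Slc17a6* cells with at least 2 *Th* UMIs, 3 untreated and 7 4OH-tamoxifen, were above the *Nmb* class as a whole, at 279 and 231 CPM.

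*Unc80*, the partner that links UNC79 to the channel, had another order among neurons. The *Chat* class was highest, at 528 CPM (389 to 700) in the untreated and 316 CPM (266 to 372) in the 4OH-tamoxifen library. The *Slc17a6* class had 225 CPM (147 to 329) and 235 CPM (188 to 290), the *Nmb* class 205 CPM (133 to 302) and 206 CPM (143 to 286), and the *Slc32a1* class 107 CPM (81.1 to 138) and 176 CPM (152 to 202). In the untreated library the *Chat* class did not overlap its neighbour. *Unc80* was higher in the *Chat* class than in the other neurons (0.88 ± 0.20, edgeR adjusted p = 4.50e-04), while *Nalcn* was lower there. It was lower in the *Slc32a1* class (-0.63 ± 0.19, adjusted p = 0.0148), where 11.1% of all genes passed. After thinning to 2000 UMIs the *Slc32a1* value was -0.08 (adjusted p = 0.925) and that of the *Chat* class 0.79 (adjusted p = 0.132). In all, the *Slc32a1* call was lost under 3 and the *Chat* call under 2 of 13 alternatives. The ratio of 4OH-tamoxifen to untreated was 0.598 (0.428 to 0.848) in the *Chat* class and 1.65 (1.22 to 2.24) in the *Slc32a1* class, in opposite directions.

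*Unc79* did not pass in any neuron class. It was highest in the *Chat* class in both libraries, at 77.0 CPM (31.0 to 159) and 53.0 CPM (34.0 to 78.9). The *Nmb* class had 57.4 CPM (23.1 to 118) from 7 untreated UMIs and 11.8 CPM (1.42 to 42.5) from 2 4OH-tamoxifen UMIs. The *Slc17a6* class had 43.2 and 16.2 CPM and the *Slc32a1* class 38.7 and 35.1 CPM, with overlapping intervals. The difference of the *Chat* class from other neurons was 0.92 (95% interval 0.10 to 1.74, edgeR adjusted p = 0.133). In the *Slc17a6* contrast none of the 6 tested genes passed at an adjusted p of 0.05, with 1.34% of all genes passing and 1 of the 6, *Hcn2*, having an unadjusted p under 0.05. DESeq2 also called 0 of the 6.

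*Nalcn* and *Unc80* UMIs were also counted in the same cells. All 3 untreated and all 22 4OH-tamoxifen *Chat* cells with a *Nalcn* UMI also had *Unc80*, which was found in 15 of 16 and 57 of 70 *Chat* cells in all. In the *Slc17a6* class 6 of 6 and 18 of 28 *Nalcn* cells had *Unc80*, against 8 of 11 and 41 of 69 of all cells. In RTN neurons the counts were 9 of 14 and 14 of 26, against 12 of 19 and 25 of 47 of all cells. In inhibitory neurons they were 22 of 41 and 55 of 107, against 35 of 70 and 129 of 267. In oligodendrocyte precursors they were 3 of 29 and 2 of 40, against 44 of 259 and 58 of 582. At these depths a missing UMI does not show that a cell lacks the transcript, and no test of the overlap was made.

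Outside neurons, the sodium leak genes were highest in oligodendrocyte precursors. *Nalcn* was at 32.8 CPM (22.0 to 47.1) and 33.6 CPM (24.0 to 45.8) in the *Pdgfra* class, *Unc79* at 38.5 CPM (26.6 to 53.8) and 22.7 CPM (15.0 to 33.0), and *Unc80* at 58.8 CPM (43.9 to 77.1) and 53.0 CPM (40.7 to 67.8). Against the other non-neuronal classes *Unc79* was higher by 2.77 ± 0.35 (edgeR adjusted p = 7.32e-11), *Unc80* by 2.04 ± 0.23 (adjusted p = 5.55e-13) and *Nalcn* by 1.83 ± 0.28 (adjusted p = 2.19e-08). With *Hcn3*, 4 of 6 tested genes were higher in this class, where 36.3% of all genes passed, and all 4 calls were kept under 13 of 13 alternatives. For *Unc79* the precursor level overlapped the range of neurons, at 45.9 CPM over untreated and 33.8 CPM over 4OH-tamoxifen neurons. The neuron gate genes summed to 231 and 396 CPM in precursors and to 108 to 352 CPM in the other non-neuronal classes, and their part in these levels was not tested. *Nalcn* was detected in 6.996% and 7.02% of thinned precursors and in 0.962% and 1.61% of thinned microglia.

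In astrocytes *Unc80* was at 27.2 CPM (20.8 to 34.8) and 23.8 CPM (19.1 to 29.3) and *Unc79* at 9.64 and 9.46 CPM. Both were higher than in the other non-neuronal classes, by 0.98 ± 0.22 (edgeR adjusted p = 9.76e-05) and 1.11 ± 0.36 (adjusted p = 0.00813), in a contrast in which 43.7% of all genes passed and 4 of the 6 channel genes did. The *Unc79* call was lost under 2 of 13 alternatives, with adjusted p up to 0.0952. *Hcn2* was the 1 that was lower there (-0.85 ± 0.22, adjusted p = 7.80e-04), with 14.0 and 24.0 CPM. In oligodendrocytes *Unc80* was lower (-1.57 ± 0.26, adjusted p = 1.66e-07). *Nalcn* remained at 10.7 and 7.18 CPM in *Mog* cells, about the level of astrocytes (9.64 and 11.3 CPM).

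Endothelial cells had low levels of the sodium leak genes. *Nalcn* was at 4.75 and 2.42 CPM in the *Cldn5* class (4 and 2 UMIs), lower than in the other non-neuronal classes by a log2 fold change of -1.73 ± 0.51 (edgeR adjusted p = 0.00365). *Unc79* had 0 and 3 UMIs (-1.80 ± 0.75, adjusted p = 0.0491) and *Unc80* 5 and 9 UMIs (-0.94 ± 0.39, adjusted p = 0.0458). The *Nalcn* call was lost under 1 of 13 alternatives (adjusted p = 0.103), the *Unc79* call under 6 and the *Unc80* call under 7. Here 37.8% of all genes passed and 3 of the 6 channel genes, all lower.

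Of the 5 genes listed as NALCN partners and receptors that act on it, 4 could be tested and 3 were higher in neurons, where 62.7% of all genes passed. *Fam155a*, whose product is a further subunit of the channel complex, was higher by 1.78 ± 0.19 (edgeR adjusted p = 2.86e-14). Its paralog *Fam155b* was higher by 2.73 ± 0.60 (adjusted p = 4.42e-05). *Tacr1*, the substance P receptor, was also called higher (adjusted p = 1.40e-19). It had 0 UMIs in both libraries of the *Pdgfra* class, so its call rests partly on a fitted value at 0 and no fold is given. *Tacr1* passed the filter of 50 UMIs only through neurons, so its call supports nothing further. *Fam155a* was also higher in the *Chat* class among neurons (0.84 ± 0.27, adjusted p = 0.0196), and in precursors (2.00 ± 0.22, adjusted p = 1.78e-13) and astrocytes (1.46 ± 0.20, adjusted p = 7.40e-10) among the non-neuronal classes. In each of these 3 classes *Unc80* was higher too. *Fam155b* was higher in the *Slc32a1* class (1.54 ± 0.54, adjusted p = 0.0483), and *Tacr1* was lower there (-2.07 ± 0.46, adjusted p = 5.12e-04). In the *Mog* class *Fam155b* (1.88 ± 0.56, adjusted p = 0.00282) and *Casr*, the calcium-sensing receptor, were higher and *Fam155a* was lower (-1.51 ± 0.25, adjusted p = 1.28e-07). *Casr* passed the filter only through its 19 and 63 UMIs in that class. *Tacr1* was at 7.36 and 11.4 CPM in inhibitory neurons, against 49.2 and 64.6 CPM in RTN neurons, 77.8 and 48.6 CPM in the *Slc17a6* class and 66.0 and 26.5 CPM in the *Chat* class.

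*Trpm4* was found in microglia as well as in neurons. Among the non-neuronal classes it was highest in the *C1qa* class, at 19.3 CPM (12.6 to 28.2) from 26 untreated UMIs and 7.93 CPM (3.96 to 14.2) from 11 4OH-tamoxifen UMIs. The *C1qa* class was higher than the other 4 by 2.61 ± 0.43 (edgeR adjusted p = 1.54e-07), a call kept under 12 of 12 alternatives. The *Mog* class was lower (-1.40 ± 0.50, adjusted p = 0.0130), with 1.13 and 1.48 CPM. Neurons had 12.6 CPM (6.30 to 22.6) and 9.38 CPM (5.73 to 14.5), overlapping microglia in both libraries, and no neuron class passed. The *Chat* class had the highest value of each library, 44.0 CPM (11.99 to 113) and 15.5 CPM (6.22 to 31.9), from 4 and 7 UMIs. The ratio of 4OH-tamoxifen to untreated was 0.412 (0.184 to 0.863) in microglia. Microglia without a *Mrc1* UMI, *Mrc1* being a gene of perivascular macrophages, held 26 of 26 and 10 of 11 of these UMIs, in 299 of 324 and 511 of 541 cells.

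*Trpc6* had 13 UMIs in all kept cells, and 2 in the 9 classes, 1 in an untreated inhibitory neuron and 1 in a 4OH-tamoxifen astrocyte. Of the remaining 11, 7 lay in 7 cells of a mural gate set by *Rgs5* and *Vtn* and kept apart from the 9 classes. That gate also held endothelial transcripts. No level can be given for RTN neurons, where 0 UMIs were counted and 3 UMIs would correspond to 24.6 CPM in the untreated and 17.6 CPM in the 4OH-tamoxifen library.

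Of a list of 10 genes, TRP relatives and the TRPM4 partner gene *Abcc8*, 6 could be tested. In neurons *Abcc8* was higher (4.23 ± 0.57, edgeR adjusted p = 1.46e-10) and *Trpm3* was lower (-1.11 ± 0.41, adjusted p = 0.0136), where 62.7% of all genes passed. *Trpc1* and *Trpc5* were also called higher (adjusted p = 2.48e-07 and 4.06e-06). Both had 0 UMIs in both libraries of the *Cldn5* class. These calls rest partly on a fitted value at 0, so no fold is given. *Trpc1* was at 29.6 and 24.9 CPM in the *Mog* class, within its range over the neuron classes, 11.003 to 51.9 CPM. It was at 0 to 23.8 CPM in the other non-neuronal classes. *Trpc5* and *Abcc8* passed the filter of 50 UMIs only through neurons. *Trpm3* was at 90.7 and 91.9 CPM in astrocytes and at 3.70 to 10.9 CPM in the other non-neuronal classes. In the neuron classes it was at 0 to 33.0 CPM. *Trpm2* was called in the same class as *Trpm4*, higher in microglia (3.35 ± 0.47, adjusted p = 1.86e-09), at 8.15 and 15.1 CPM. Among neurons it had 0 UMIs in both libraries of the *Nmb* class and stood at 88.0 and 75.1 CPM in the *Chat* class, 17.3 and 43.2 CPM in the *Slc17a6* class and 20.3 and 26.4 CPM in the *Slc32a1* class. Its calls in the *Nmb* and *Chat* contrasts (adjusted p = 0.00278 and 4.94e-05) both rest on a fitted value for the class at 0, so no fold is given. *Trpc5* was higher in the *Slc32a1* class (2.05 ± 0.48, adjusted p = 0.00119) and lower in the *Chat* class (-2.93 ± 0.90, adjusted p = 0.0156). It passed the filter only through its 16 and 53 UMIs in the *Slc32a1* class, so that call supports nothing further. The *Chat* call rests on 0 and 2 UMIs.

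Over all 10 contrasts, the 6 tested genes gave 6 calls in neurons against non-neurons, 4 within neurons and 16 within the non-neuronal classes. The shares of all genes that passed were 62.7%, 1.34% to 14.2% and 36.3% to 55.1%. All 26 had the same direction in each library taken alone. The scaling moved the balance of all called genes in other contrasts too. With library sizes in place of TMM factors the share of called genes that were higher went from 50.3% to 81.7% for the *Pdgfra* class, 49.3% to 35.2% for the *Mog* class, 55.3% to 33.2% for the *C1qa* class and 86.2% to 65.4% for the *Slc32a1* class, and with DESeq2 from 47.9% to 75.0% for the *Nmb* class. The median of all genes in the class contrasts was between -0.17 and 0.27 with TMM factors and between -0.38 and 0.39 with library sizes. None of the 26 calls changed direction with either.

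Genes with the most similar pattern over the 18 class and library sums were found by Pearson's r of log2(CPM + 10), among about 7120 genes with at least 500 UMIs. The sums share libraries and differ in depth, so r is a description. *Unc80* ran closest to *Reep2* (r = 0.990), *Add2* (0.979) and *Dmxl2* (0.977), *Nalcn* to *Resp18* (0.986), *Ahi1* (0.985) and *AW551984* (0.983), and *Hcn3* to *Lrfn5* (0.975), *Pnck* (0.974) and *Nalcn* itself (0.973). *Unc79* ran closest to *Ttc19* (0.938), *Prkar2b* (0.935) and *Fndc4* (0.930). *Hcn2* had *Ube2m* (0.898), *Pafah1b2* (0.896) and *Far1* (0.886), and *Trpm4* had *Gas6* (0.860), *Pacsin2* (0.843) and *Slc2a8* (0.840).

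Between the libraries most levels differed by no more than counting error. Of the 6 tested genes in the 9 classes, 6 of 54 ratios of 4OH-tamoxifen to untreated had an interval that excluded 1. They were *Hcn2* in the *Slc17a6*, *Chat* and *Aqp4* classes, *Unc80* in the *Slc32a1* and *Chat* classes and *Trpm4* in the *C1qa* class. Over all neurons *Hcn2* was higher in the 4OH-tamoxifen library (ratio 1.59, 1.26 to 2.04), and over all non-neuronal cells as well (1.38, 1.24 to 1.54). Both ratios pool classes in unequal shares. Among neurons, the *Hcn2* ratios of the *Nmb* and *Slc32a1* classes were not among those that excluded 1. Within the *Mog* class, which holds most non-neuronal *Hcn2* UMIs, the ratio was 1.06 (0.944 to 1.20). The *Nalcn* ratio over all neurons, pooled in the same way, was 0.928 (0.743 to 1.17), from 132 CPM in the untreated and 122 CPM in the 4OH-tamoxifen library.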

How the data were processed

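Single-cell RNA was measured in 2 libraries of 10X v2 chemistry. The authors deposited raw UMI counts per gene and cell barcode. Per the submitters' processing notes, bcl2fastq 2.18.0.12 and Cell Ranger 2.2.0 were used with mm10/GRCm38. The files held 3767 untreated and 10241 4OH-tamoxifen barcodes with 18496942 and 34704167 UMIs, and kept cells had medians of 3628 and 2411 UMIs. From these, barcodes with fewer than 800 genes, over 50 hemoglobin UMIs or over 20% mitochondrial UMIs were removed, as were the 6 and 544 that Scrublet (scanpy 1.11.5) marked at its automatic threshold.

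Neurons needed at least 2 of *Snap25*, *Syp*, *Tubb3* and *Elavl2* and at least 3 UMIs of them, with at most 1 UMI of non-neuronal markers, and then *Nmb* (at least 2 UMIs), *Slc32a1*, *Slc17a6* or *Chat*. Non-neuronal classes needed at least 2 UMIs of their marker and at most 1 of the others. UMIs were summed per class and library and divided by the class total (CPM). Intervals were exact Poisson for CPM, Clopper-Pearson for shares and exact conditional for ratios, all at 95%, and the limit for a count of 0 was 3 UMIs. Thinned shares use 2000 UMIs drawn from each cell and omit cells with fewer.

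The 18 sums were fitted with edgeR 4.0.16 (R 4.3.3; quasi-likelihood test, TMM factors, class and library as terms) over genes with at least 50 UMIs, with Benjamini-Hochberg adjustment and calls at 0.05. The 2 libraries served as the replicates of a class. They are pools of mice that differ in condition and batch. With library as a term, p-values measure how class differences vary between these 2 libraries, with the spread partly shared over genes. They do not measure the spread between mice. DESeq2 1.42.0 and other filters, gates and scalings were alternatives.

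The members and lists were chosen with earlier results of these data known. Named were the 8 genes in every class, for each tested one the 3 genes with the highest r among genes with at least 500 UMIs, the gate markers, and listed relatives called in neurons or in a neuron class. Relatives named in the non-neuronal classes, and the *Klk6*, *Enpp6*, *Opalin* and *Mrc1* subsets, were chosen after values were seen. *Fam155b* is listed in the files under the symbol Tmem28. Python 3.11.15, scipy 1.17.1, numpy 2.4.6 and pandas 2.3.3 were used. Some genes of the lists are not reported here.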

Additional observations from a re-analysis of the deposited data

Results flagged for a closer look

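Signal was found in a gate outside the 9 classes compared, a gate for mural cells set by *Rgs5* and *Vtn* (171 untreated and 222 4OH-tamoxifen cells). The gate also held endothelial genes: *Flt1*, *Pecam1*, *Ly6c1* and *Slco1a4* summed to 2969 and 2948 CPM, against 4206 and 3712 CPM in the *Cldn5* class, while *Pdgfrb*, *Kcnj8* and *Notch3* summed to 1066 and 858 CPM, against 21.4 and 80.0 CPM there. The levels below are those of the gate and not of mural cells alone. *Hcn2* stood there at 34.2 CPM over both libraries, with 27.1 CPM (17.8 to 39.4) in the untreated and 40.6 CPM (29.6 to 54.4) in the 4OH-tamoxifen library. *Mbp*, *Mag* and *Mobp* summed to 7999 and 8316 CPM in this gate, and their part in the *Hcn2* level was not tested. *Trpc6* was at 3.33 CPM over both libraries, from 4 untreated and 3 4OH-tamoxifen UMIs in as many cells.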

How the results depend on the processing

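The 6 calls in neurons against non-neurons became 5 to 6 and the 16 calls in the non-neuronal classes 12 to 17 under the alternatives. The 4 calls within neurons became 1 with neuron markers at a minimum of 2 UMIs and 1 when cells were thinned to 2000 UMIs. *Trpm4* in neurons reversed to -0.40 (edgeR adjusted p = 0.892) with at most 10% mitochondrial UMIs, and the cause was not tested. Of the fits of single calls, 299 kept their direction and call and 35 lost the call. With either library left out, all 52 values kept their direction, with no test. Of the levels, 1500 moved by less than their interval and 84 by more, and of the shares, 117 and 171. No paired analysis was possible because each condition has 1 library, so that no samples pair between conditions, while all class contrasts had the library as a term. Depth limits *Hcn4* and *Trpc6* throughout, and the *Slc17a6*, *Chat* and *Nmb* classes of the untreated library, with 11, 16 and 19 cells.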

Other observations

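The 4616 cells that passed no gate held 1007 of the 3088 *Hcn2* UMIs of all kept cells, 551 of the 1192 *Nalcn* UMIs and 986 of the 1984 *Unc80* UMIs. In the untreated library their levels were 50.4 CPM for *Hcn2*, 28.5 CPM for *Nalcn* and 48.6 CPM for *Unc80*. In the 4OH-tamoxifen library they were 62.7, 33.9 and 61.8 CPM.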
